A study of Mus musculus with 5 samples.

Results

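AP-1 is a family of transcription factors that bind DNA as dimers, and 7 genes of this family were followed here through the islet cells of mice on 2 diets: Fos, Fosb and Fosl2 of the Fos family, Jun, Junb and Jund of the Jun family, and Atf3 of the related ATF family. The 7 genes were taken by symbol from the 32285 genes of each count matrix. All 7 were present in each library.

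The AP-1 dimer forms through leucine zippers, and its basic regions contact the DNA. Fos proteins need a Jun partner, whereas Jun proteins can also pair with themselves. Most of these genes are immediate-early genes, whose transcription starts within minutes of a stimulus without new protein synthesis, and MAP kinases and calcium signals switch them on. In pancreatic islets, glucose, membrane depolarisation and cyclic AMP are known to induce several of them, as is the enzymatic dissociation of a tissue into single cells.

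Pancreatic islets of NOD.Cg-Prkdcscid/J mice (NOD.SCID) were picked by hand, dissociated with trypsin and sequenced as 1 droplet library per mouse (10x Genomics 3′ chemistry). All 5 animals carried the scid mutation of Prkdc, which leaves them without mature T and B cells. The 3 control mice ate chow and were 8, 10 and 10 weeks old (chow mice 1 to 3), and the 2 others ate a diet labelled 20% HC, hydrolyzed casein, and were 7 and 9 weeks old (HC mice 1 and 2). The title of the library of HC mouse 2 names chow while its diet label names HC, and it was grouped by the diet label. Chow mouse 1 and HC mouse 1 share the library prefix FUN and the other 3 mice the prefix SKY, whose meaning the labels do not give.

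The libraries held 28722244 to 39624978 UMIs (unique molecular identifiers, each standing for 1 captured RNA molecule) in 4452 to 6087 barcodes, of which 22758 of 26474 passed the filter on cells. Pairs of libraries shared between 3 and 10 kept barcodes. Clusters were named beta, alpha, delta, endothelial, macrophage and stromal from marker genes, with the AP-1 genes and other immediate-early and heat shock genes left out of the clustering. The summed markers of each named type were higher in its own cells than in the other named types in every mouse, except for stromal cells, whose list reached 13881 to 26531 CPM (UMIs per 1000000 UMIs of the sum) in them and 22529 to 25293 in the highest other type. That list contains Sparc and Igfbp7, which endothelial cells also express. Acinar cells were too few to test, with 11 in HC mouse 1 and 12 in chow mouse 2, under the 20 needed in every mouse. Clusters that received no name held 13.9% of kept cells.

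The sequences just before 3 of the genes are shown because the TMM-normalised level in beta cells lay below that of all chow mice in both HC mice for Fos, Jun and Junb, as for 9.99% of all genes, though none of these passed the test. Jund, the other gene with this pattern, is not shown because its RefSeq start lies well away from the GENCODE start. Each run is the RefSeq promoter sequence of GRCm38.p6 from 130 to 11 bases before the RefSeq start, 5′ to 3′ on the gene's own strand. Capitals mark 2 motifs of the cyclic AMP and ATF type, TGACGT and TGACATCA, which were searched on both strands in the 250 bases before the start.
Fos, chr12:85473760-85473879, plus strand: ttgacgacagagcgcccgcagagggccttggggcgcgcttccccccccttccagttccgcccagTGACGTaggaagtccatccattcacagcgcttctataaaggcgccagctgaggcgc
Jun, chr4:95052233-95052352, minus strand: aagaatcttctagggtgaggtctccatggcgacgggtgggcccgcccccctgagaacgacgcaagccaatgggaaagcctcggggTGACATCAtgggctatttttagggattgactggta
Junb, chr8:84978759-84978878, minus strand: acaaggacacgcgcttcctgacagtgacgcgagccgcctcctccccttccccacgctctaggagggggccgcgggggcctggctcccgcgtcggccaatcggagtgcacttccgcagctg
The Fos match lay 66 to 61 bases before the start and the Jun match 45 to 38 bases before it. TGACGT was found in 6.56% and TGACATCA in 3.02% of 27025 promoters of the same length. Among the 7 genes TGACGT occurred also before Atf3, 8 to 3 bases from the start on the opposite strand. The longer TGACGTCA, which contains TGACGT (1.62% of promoters), the AP-1 site TGANTCA (6.87%) and the CArG box of serum response factor (1.40%) had no match in these windows of the 7 genes. The RefSeq starts of Fosl2 and Atf3 also lie well away from the outer end of the gene in GENCODE, so the windows of Fosl2, Jund and Atf3 may miss the start in use. These matches are a description of the letters only.

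Jun and Junb were highest in endothelial cells among the 6 named types. Hormone transcripts filled 65.0% to 72.3% of all beta cell UMIs but 0.970% to 5.06% of endothelial UMIs, 16.6% to 30.2% of macrophage and 20.0% to 39.0% of stromal UMIs, so levels across cell types are given as CPM after leaving out Ins1, Ins2, Iapp, Gcg, Sst, Ppy and Pyy (hormone-free), as mean ± SD over the 5 mice. The macrophage and stromal sums held 139261 to 367780 plain CPM of beta cell markers, whose part in the comparisons of these types with beta cells was not tested. Jun, the dimer partner of most AP-1 complexes, reached 1834 ± 269 in endothelial cells, with no overlap with any other type. It followed at 1043 ± 154 in alpha, 893 ± 128 in macrophage, 884 ± 126 in delta, 865 ± 280 in stromal and 670.5 ± 157 in beta cells, and each neighbour in this lower part of the order overlapped the next. Against beta cells, edgeR's quasi-likelihood test with the mouse as a block gave a log2 difference of 1.64 ± 0.109 (SE) for endothelial cells, with a Benjamini-Hochberg adjusted p over 10775 genes of 1.1e-17.

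Junb, a Jun protein with weaker transactivation than Jun, was also highest in endothelial cells, at 1110 ± 155 hormone-free CPM (mean ± SD, 5 mice). Its lowest endothelial value, 1002, lay above the highest macrophage value, 978. Macrophages (756 ± 155), stromal cells (730 ± 221) and alpha cells (665 ± 121) overlapped one another, and beta cells (379 ± 96.9) and delta cells (271 ± 78.6) came last. In the blocked edgeR fit Junb exceeded beta cells by log2 1.78 ± 0.151 in endothelial, 1.52 ± 0.172 in macrophage, 1.18 ± 0.18 in stromal and 1.00 ± 0.132 in alpha cells, with adjusted p of at most 9.52e-06. Delta cells were the only type in which Junb was called lower than in beta cells, by log2 -0.50 ± 0.149 (adjusted p = 0.00789).

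Jund, which is made more constantly than its relatives, overlapped between neighbouring types throughout. Its hormone-free level ran from 1106 ± 135 in alpha cells through delta (1016 ± 163), stromal (885 ± 272), endothelial (849 ± 78.5) and beta cells (801 ± 138) to 587 ± 98.7 in macrophages. By the edgeR fit, alpha cells (log2 0.64 ± 0.098), delta cells (0.33 ± 0.101) and endothelial cells (0.29 ± 0.115) were above beta cells, with adjusted p of 4.35e-06, 0.00874 and 0.0317. The stromal difference of 0.29 ± 0.127 did not pass (adjusted p = 0.0691). On hormone-free CPM, endothelial cells lay above beta cells in 2 of the 5 mice and below them in 3.

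**Figure D1:**
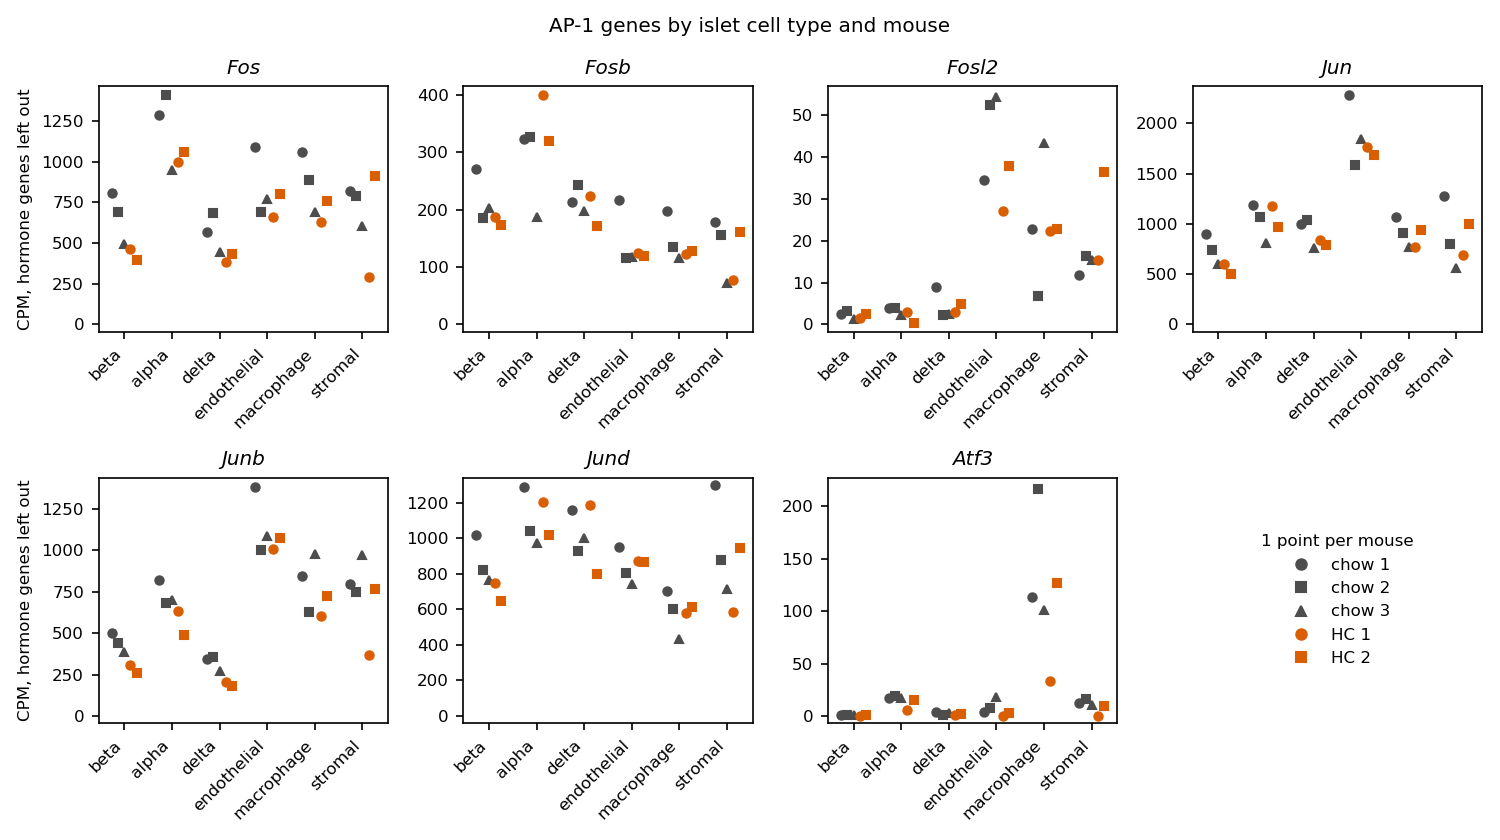
Hormone-free CPM of the 7 AP-1 genes (linear axes from 0, a separate scale for each gene) in the 6 named cell types, with 1 point per mouse, grey for chow and orange for HC. Jun and Junb stand highest in endothelial cells, Fos and Fosb in alpha cells, Fosl2 in endothelial cells and Atf3 in macrophages.

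Among the Fos genes, Fos and Fosb were highest in alpha cells. Fos, the inducible partner of Jun, reached 1141 ± 198 hormone-free CPM there, against 805 ± 174 in macrophages, 803 ± 172 in endothelial cells, 685 ± 246 in stromal cells, 571 ± 171 in beta cells and 503 ± 122 in delta cells. Neighbours in the order overlapped in range, and alpha cells exceeded macrophages in each of the 5 mice. The log2 difference of alpha from beta cells was 1.20 ± 0.13 (edgeR with the mouse as a block, adjusted p = 5.4e-08), and that of delta cells, -0.19 ± 0.139, did not pass (0.279). Fosb, a close relative of Fos, stood at 311 ± 76.5 in alpha cells and between 129 ± 50.5 (stromal) and 210 ± 27.3 (delta) in the other types. Alpha was the only type in which Fosb was called different from beta cells, by log2 0.79 ± 0.125 (adjusted p = 1.16e-05).

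Fosl2, also called Fra-2, was scarce in endocrine cells. Its hormone-free level was 41.2 ± 11.7 in endothelial, 23.6 ± 13.0 in macrophage and 19.1 ± 9.81 in stromal cells, against 4.31 ± 2.82 in delta, 2.75 ± 1.47 in alpha and 2.21 ± 0.741 in beta cells, and the lowest stromal value lay above the highest delta value. Macrophages of chow mouse 2, at 6.77, lay below the highest delta value of 8.95. The counts behind these levels were small, 6 to 14 UMIs per mouse in endothelial, 1 to 9 in macrophage, 1 to 12 in stromal and 8 to 22 in beta cells. The edgeR fit gave log2 differences from beta cells of 4.28 ± 0.362, 3.92 ± 0.492 and 3.48 ± 0.533 for endothelial, macrophage and stromal cells (adjusted p = 1.42e-20, 1.29e-11 and 1.37e-08). The delta difference of 0.97 ± 0.424 lay near the threshold (adjusted p = 0.0478).

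Atf3, a stress-induced factor that can repress as well as activate, was found mainly in macrophages. It reached there 27.8 and 97.3 plain CPM in HC mice 1 and 2, and 79.5, 153 and 76.1 in chow mice 1 to 3. In beta cells it lay between 0.128 and 0.332 in all 5 mice, from 2 to 7 UMIs per library. Macrophages of HC mouse 2 lay above those of chow mice 1 and 3, so the groups overlapped. Alpha cells ranked next, at 14.9 ± 5.13 hormone-free CPM against 118 ± 65.7 in macrophages, and the ranges did not overlap. The log2 differences from beta cells were 7.47 ± 0.296 for macrophages and 4.21 ± 0.263 for alpha cells (edgeR, mouse block, adjusted p = 2.75e-46 and 2.56e-29). Stromal and endothelial cells were also called higher, from 0 to 3 UMIs per library.

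Of the 7 genes, 6 were called higher than in beta cells in alpha cells, where 29.5% of all genes were, and 6 in endothelial cells (35.4% of all genes). In macrophages 5 were called higher (25.2%), in stromal cells 5 (25%) and in delta cells 3 (25.1%), while 1, Junb, was called lower in delta cells (24.1%). In alpha, endothelial, macrophage and stromal cells 0 of the 7 were called lower than in beta cells, where 26.7%, 30.4%, 23.6% and 20.7% of all genes were. Without HC mouse 2 the stromal count was 3, where 2099 of 10311 genes were called higher. Without HC mouse 1 it was 6 (2599 of 10471), and with the chow mice alone it was 3 (1893 of 9726).

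The order of the types depended on the scale for several pairs. On plain CPM Fos and Jund stood highest in endothelial cells, at 783 ± 172 and 826 ± 79.4 (mean ± SD, 5 mice), against 625 ± 111 and 606 ± 78.4 in alpha cells. On plain CPM, Junb was higher in delta than in beta cells in each mouse, for example 133 against 107 in HC mouse 1 and 238 against 122 in chow mouse 2. With the hormone genes left out it was lower in delta cells in each mouse, 202 against 306 and 356 against 441 in the same animals. For Jund and Fosb, macrophages were above beta cells in each mouse on the plain scale and below them in each mouse on the hormone-free scale. The fit, which scales by TMM, gave macrophage differences of 0.03 ± 0.131 for Jund and -0.09 ± 0.248 for Fosb that did not pass (adjusted p = 0.865 and 0.8). Leaving the hormone genes out of the fit moved the delta value of Junb only from -0.50 to -0.47.

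**Figure D2:**
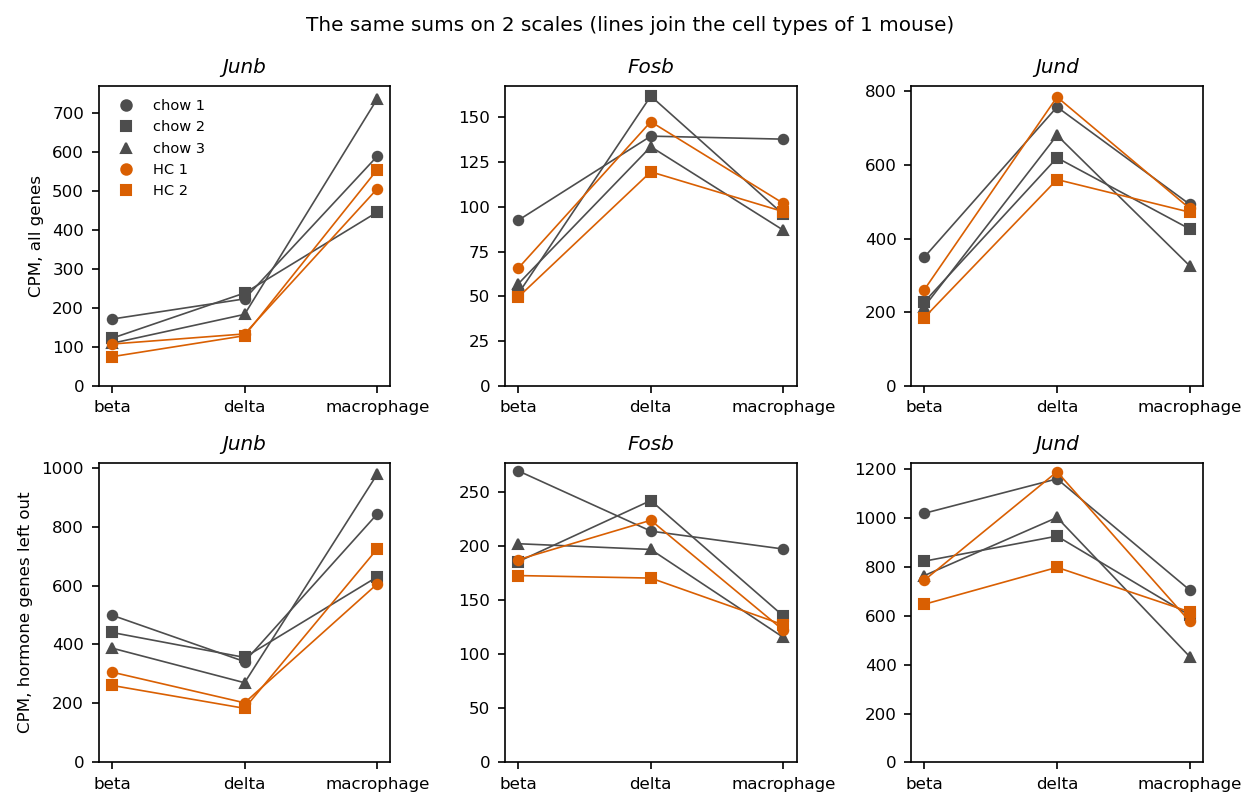
Plain (top) and hormone-free (bottom) CPM of Junb, Fosb and Jund in beta, delta and macrophage cells on linear axes from 0, with lines joining the values of 1 mouse. Junb in delta cells lies above beta cells in the top row and below them in the bottom row in each of the 5 mice.

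On the HC diet, no AP-1 gene passed the test against chow in any cell type, and the lowest p belonged to Junb in beta and delta cells. In beta cells, TMM-normalised Junb was 93.8 and 81.1 CPM in HC mice 1 and 2, against 152, 135 and 118 in chow mice 1 to 3. Both HC mice lay below all chow mice. The log2 difference was -0.63 ± 0.118 (edgeR's quasi-likelihood test, Benjamini-Hochberg adjusted p = 0.12, unadjusted p = 0.000132). It was -0.70 within the FUN pair and -0.64 within the SKY mice. DESeq2 called it (adjusted p = 0.00977). So did edgeR with the prefix as a term (0.00479), with age as a term (0.00429) and without the filter on low counts (3.18e-06). The other alternatives did not call it. Among them, edgeR gave adjusted p of 0.0793 with equal cells per mouse and 0.112 with hormone genes left out. With 1 chow mouse left out it gave 0.198 to 0.456. Grouping HC mouse 2 by its title gave a log2 difference of -0.38.

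Fos in beta cells was 142 and 124 TMM-normalised CPM in the HC mice and 245, 212 and 150 in the chow mice. The groups were apart by less than the spread among the chow mice. The log2 difference of -0.61 ± 0.207 did not pass (adjusted p = 0.928). Jun had 183 and 156 in the HC mice against 276, 228 and 183 in the chow mice, a log2 difference of -0.44 ± 0.160 (0.912). Its higher HC value and its lowest chow value were almost equal. Jund had 229 and 201 against 311, 252 and 232, with -0.30 ± 0.124 (0.949).

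All 6 AP-1 genes tested in beta cells lay below 0, with a median log2 difference of -0.37, where 5971 of 11852 genes did. By edgeR 0 of the 6 were called, where 0.00844% of all genes were. DESeq2 called 1 (Junb), and of 18021 genes it called 6 higher and 6 lower. An unadjusted edgeR p under 0.05 was found for 4 (Fos, Jun, Junb and Jund), as for 5.04% of all genes. The same 4 had both HC mice below all chow mice, as 9.99% of all genes did. On plain CPM the separation held for Junb alone among these 4, with 107 and 74.9 against 171, 122 and 109. Fos, for example, was then 162 in HC mouse 1 and 139 in chow mouse 3. The remaining tested genes, Fosb (-0.27 ± 0.146) and Fosl2 (-0.26 ± 0.453), overlapped between the diets, and Atf3 was below the filter in beta cells. Chow mouse 1 was the highest of the 5 mice for 5 of the 6 genes. Fewer cells with a transcript and less of it per cell cannot be told apart in such sums.

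Other values moved between these beta cell sums. The insulin genes made up 61.4% and 68.3% of the UMIs in the HC mice and 62.2%, 69.2% and 69.1% in the chow mice, and the mitochondrial genes took a median of 4.09% and 2.56% of a cell's UMIs against 3.43%, 2.02% and 2.24%. The mice with the FUN prefix, 1 on each diet, had the lower insulin share and the higher mitochondrial share. The 15 acinar markers summed to 121 and 68.8 CPM in the HC mice and 224, 42.9 and 28.0 in the chow mice, and the 14 macrophage markers to 8.06 to 20.0 over all 5. The PP cell markers summed to 106 and 115 CPM against 58.0, 477 and 836, and the erythroid markers to 0.385 and 0.665 against 0.457, 49.5 and 55.2, with the higher values in chow mice 2 and 3. The part of these in the AP-1 values was not tested.

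In delta cells, Junb was 135 and 127 TMM-normalised CPM in HC mice 1 and 2 and 229, 243 and 185 in chow mice 1 to 3. The HC mice lay below all chow mice. The log2 difference of -0.74 ± 0.147 did not pass (edgeR, adjusted p = 0.224) and was -0.76 within FUN and -0.74 within SKY. Among the alternatives it passed only with the prefix (adjusted p = 0.0237), with age (0.0430) or without the low-count filter (0.00245). Fos was 256 and 299.9 against 381, 466 and 304, a difference of -0.47 ± 0.161 (0.998). These 2 of 5 tested genes had both HC mice below all chow mice, where 8.8% of all genes did, and the same 2 had an unadjusted edgeR p under 0.05 (3.39% of all genes). Called were 0 of 5 and 0.0% of all genes by edgeR, and 0 of the 5 by DESeq2. The delta sums held 42524 to 154306 CPM of beta cell markers, and with delta droplets of at least 20% insulin UMIs left out the Junb difference was -0.71.

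In alpha cells, Junb was 337 and 265 TMM-normalised CPM on HC and 449, 383 and 393 on chow, without overlap. Its log2 difference was -0.44 ± 0.131 (edgeR, adjusted p = 0.545), and only with age as a term did it pass (0.0478). Atf3 was 3.26 and 8.14 on HC and 9.32, 10.8 and 9.54 on chow, from 18 to 43 UMIs per mouse, with -0.84 ± 0.313 (adjusted p = 0.669). HC mouse 1 was the lowest, and without HC mouse 2 Atf3 passed (adjusted p = 0.0496), as it did when HC mouse 2 was grouped as chow by its title (0.0468). In both fits HC mouse 1 alone made up the HC group, and its spread was taken from the chow group. These 2 of 6 tested genes had both HC mice below all chow mice, where 10.7% of all genes did, and the same 2 had an unadjusted edgeR p under 0.05 (7.02% of all genes). Called were 0 of 6 by edgeR, against 0.0653% of all genes, and 0 of 6 by DESeq2. Jun (0.02 ± 0.144), Jund (-0.03 ± 0.131) and Fosb (0.31 ± 0.242) overlapped between the diets. The PP cell markers in these alpha sums came to 9329 and 26890 CPM on HC and 5581, 46846 and 43455 on chow, and the acinar markers to 244 and 197 against 512, 88.1 and 57.2. Their part in the alpha values was not tested.

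**Figure D3:**
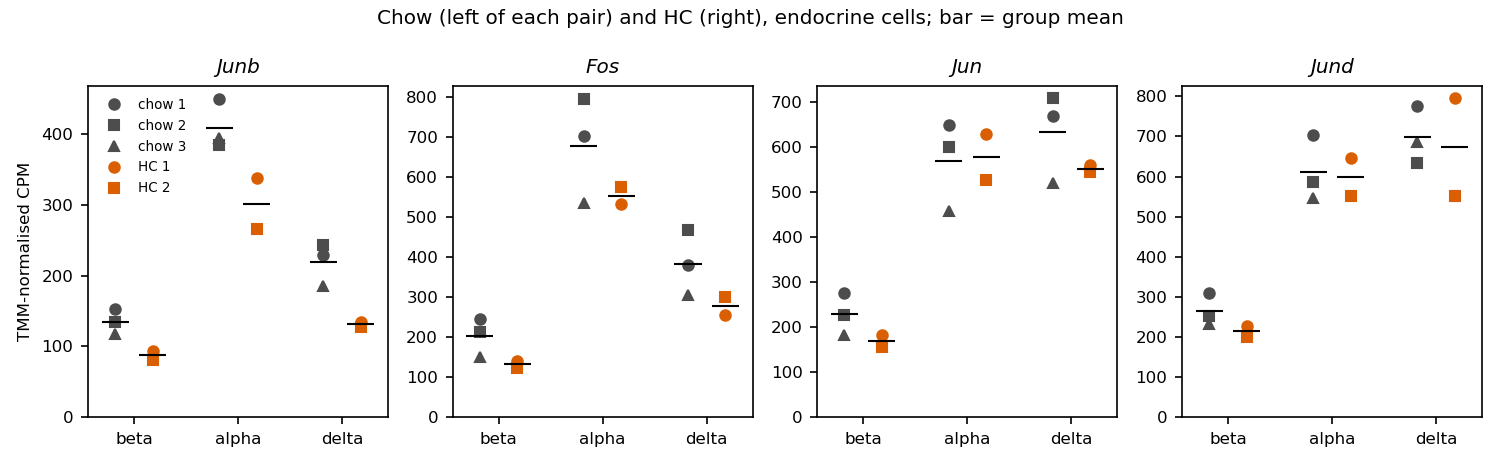
TMM-normalised CPM of Junb, Fos, Jun and Jund in beta, alpha and delta cells on linear axes from 0, 1 point per mouse with chow in grey at the left and HC in orange at the right of each pair, and a bar at the group mean. Junb lies lower in both HC mice than in the 3 chow mice in all 3 cell types, whereas Jun and Jund overlap in alpha and delta cells.

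In macrophage, endothelial and stromal cells the TMM-normalised level of each tested AP-1 gene overlapped between the diets. Both HC mice lay below all chow mice for 8.18%, 8.68% and 7.32% of all genes in these types. Junb differed by log2 -0.27 ± 0.261 in macrophages, -0.15 ± 0.188 in endothelial cells and -0.50 ± 0.351 in stromal cells (edgeR, adjusted p = 1.0, 1.0 and 0.999). These sums rest on 31 to 273 cells per mouse, against 1742 to 2640 in beta cells. The stromal values turned on single mice: Fos was 227 TMM-normalised CPM in HC mouse 1 and 753 in HC mouse 2, with the chow mice at 494 to 654 between them. Called by edgeR were 0 of 6 in macrophages, 0 of 6 in endothelial and 0 of 5 in stromal cells (0.0%, 0.0383% and 0.0% of all genes). DESeq2 called 0 in each, and 0 had an unadjusted edgeR p under 0.05, as 2.96%, 3.08% and 1.38% of all genes had.

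Over all kept cells, Junb was 164 and 166 TMM-normalised CPM on HC and 227, 204 and 197 on chow, a log2 difference of -0.34 ± 0.0893 (edgeR, adjusted p = 0.731). It was 1 of 7 genes with both HC mice below all chow mice, where 11.1% of all genes were, and also the 1 with an unadjusted edgeR p under 0.05 (5.79% of all genes). Called were 0 of 7 by edgeR (0.0% of all genes) and 0 by DESeq2. The other 6 overlapped, among them Fosb at -0.0022 ± 0.145 and Atf3 at -0.26 ± 0.655. The pooled sums mix cell types in different shares.

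**Figure D4:**
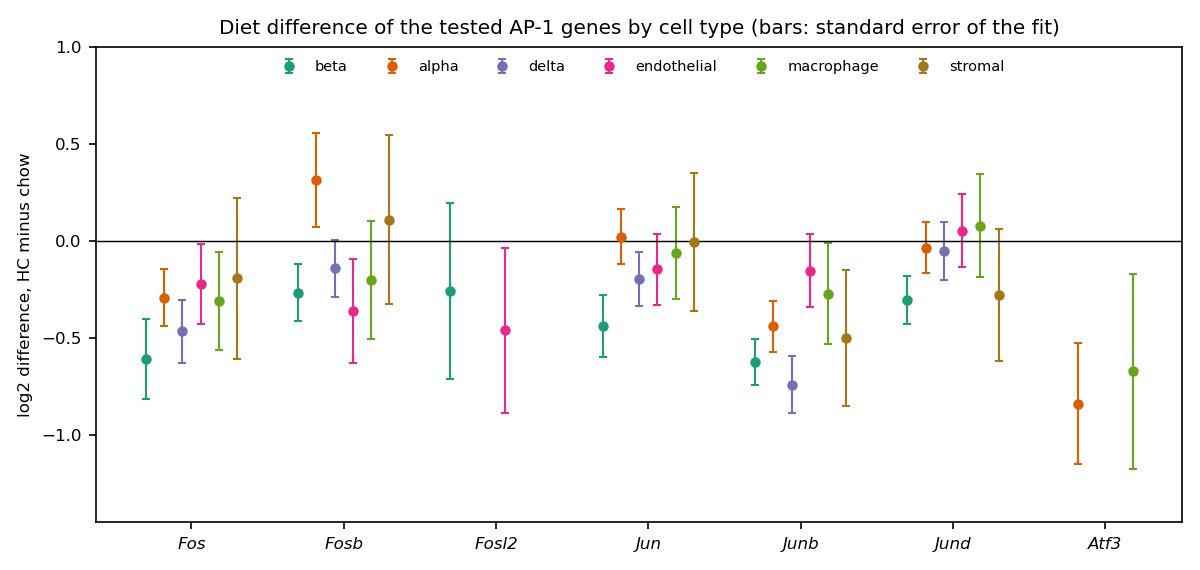
Log2 difference (HC minus chow) of each AP-1 gene that passed the low-count filter, by cell type (colours), with bars for the standard error of the edgeR fit. Junb lies below 0 in the 6 cell types, from -0.15 in endothelial to -0.74 in delta cells, and none of the points passed the test.

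Whether the diet difference itself differed between a cell type and beta cells was tested by the interaction of diet and type with the mouse as a block. By edgeR 0 of the 7 genes passed in alpha, delta, endothelial, macrophage or stromal cells, where 0.00885%, 0.0177%, 0.0266%, 0.00885% and 0.0% of 11299 genes were called. At an unadjusted edgeR p under 0.05 there were 2 of 7 in alpha cells (Fosb and Jun, where 3.64% of all genes were), 1 each in macrophage (4.89%) and stromal cells (4.22%), Jun both times, and 0 in delta (3.0%) and endothelial cells (3.96%). DESeq2 was not run for the interaction. The diet difference of Fosb in alpha cells exceeded that in beta cells by log2 0.62 ± 0.193 (edgeR, adjusted p = 1.0), and that of Jun in alpha cells by 0.48 ± 0.186 (adjusted p = 1.0). Fosb in alpha cells passed with a stricter cell filter of 2000 UMIs and 10% mitochondrial UMIs (0.58 ± 0.128, adjusted p = 0.0111) and without chow mouse 2 (0.87 ± 0.171, 0.00541), and Jun passed in macrophages with that stricter filter (0.74 ± 0.176, 0.0460). Fos in stromal cells passed without HC mouse 1 (1.16 ± 0.194) and had the opposite sign without HC mouse 2 (-0.96 ± 0.341, adjusted p = 0.976). In each of these 2 fits a single mouse made up the HC group.

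Shares of cells with at least 1 UMI were compared after thinning each cell to 1000 UMIs. Junb was detected in 10.2% and 5.93% of beta cells of HC mice 1 and 2 and in 15.3%, 10.5% and 9.36% in chow mice 1 to 3, which overlapped (unthinned 46.3% and 45.3% against 64.2%, 57.3% and 49.2%, without overlap). In delta cells the shares of Junb were 13.8% and 12.1% on HC and 18.8%, 21.5% and 17.4% on chow. The HC shares lay below all chow shares, with a mean difference of -6.28 points (exact permutation p = 0.1, two-sided, over the 10 ways to choose 2 of 5 mice, the smallest it can give; 0.8 after adjustment over 42 comparisons). Unthinned, they were 26.8% and 25.8% against 46.1%, 42.0% and 32.4%. In alpha cells Junb was found in 28.7% and 23.9% against 35.8%, 29.0% and 29.9% (exact p = 0.2). Of the 42 comparisons of a member and a cell type, 9 had both HC shares below all chow shares and 0 had both above. Delta cells held 4 of these, where 8.07% of all genes tested had this pattern, and endothelial cells 3 (8.29%). Beta cells held 1 (6.52%) and alpha cells 1 (7.02%), and macrophage (7.22%) and stromal cells (7.94%) held 0. In delta cells these were Junb, Fos (23.0% and 21.9% against 32.2%, 35.1% and 25.4%), Fosb and Fosl2. There Fosl2 rested on very few cells, with means of 0.0994% on HC and 0.386% on chow of 410 to 503 cells per mouse. In endothelial cells Fosl2 was found in 2.78% and 2.20% against 4.17%, 5.08% and 3.75%, from 3 to 9 cells per mouse, and the others were Fosb and Atf3, the latter in 0 to 2 cells per mouse. The single gene in beta cells was Atf3, in 0 cells of each HC mouse and 1 cell of each chow mouse. The adjusted p was 0.8 for all 9. The shares of all genes given here cover only genes that passed the low-count filter in the type. Fosl2 in delta cells and Atf3 in endothelial and beta cells did not pass it. For HC shares above all chow shares, the share of all genes was not computed.

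Detection of Atf3 set macrophages apart as its level did. After thinning, 4.21% to 14.5% of macrophages and 0.0% to 0.0574% of beta cells held an Atf3 UMI; unthinned, with median depths of 1533 to 1882 and 6382 to 9630 UMIs, the shares were 5.26% to 26.3% and 0.0485% to 0.339%. Jun was found in 71.2% to 83.3% of thinned endothelial cells and in 12.5% to 24.2% of thinned beta cells. At least 1 of the 7 genes was found in 94.9% to 97.2% of endothelial, 78.0% to 86.6% of alpha and 40.3% to 66.7% of beta cells. Hormone UMIs were counted in the thinning, so these shares are not hormone-free. They filled 65.0% to 72.3% of beta, 43.7% to 47.3% of alpha and 0.970% to 5.06% of endothelial UMIs. Their part in the differences between types was not tested. The insulin genes, which macrophages do not express, made up 13.0% to 26.8% of macrophage UMIs. For the members other than Atf3 no share from a cell type that lacks the gene is given.

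Jun was found more often in cells with Fos than in cells without it. Among thinned alpha cells with a Fos UMI, 44.1% to 57.1% also had one of Jun, against 26.2% to 38.5% of those without Fos. In beta cells the shares were 17.6% to 25.9% and 11.9% to 23.6%, the former higher in each mouse. Hormone UMIs were counted in the thinning, and their part in these shares was not tested. No other pair of genes is given for comparison.

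The lists of related genes differed in how they lay, where 5971 of 11852 genes lay below 0 in beta cells, 5351 of 10719 in alpha cells and 4787 of 9493 in delta cells, with medians of -0.0015, 0.00032 and -0.0028. One list held dual-specificity phosphatases, which switch MAP kinases off, and other feedback genes. Of these, 12 of 12 tested lay below 0 in beta cells (median log2 -0.36) and 7 of 7 in delta cells (-0.26). In alpha cells it was 7 of 12 (-0.03), and over all kept cells 6 of 16 (0.15). In endothelial, macrophage and stromal cells it was 6 of 9 (-0.14), 2 of 5 (0.03) and 2 of 6 (0.25). None was called. Dusp1, a phosphatase of the stress kinases, was 26.7 and 21.8 plain CPM in beta cells of HC mice 1 and 2 and 43.4, 30.4 and 27.9 in chow mice 1 to 3. Its log2 difference was -0.54 ± 0.118 (edgeR, adjusted p = 0.368). Dusp8 had -0.67 ± 0.256 (0.912) and overlapped between the diets.

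Of the other immediate-early genes, 14 of 18 lay below 0 in beta cells (median -0.42), 12 of 18 in alpha cells (-0.15) and 6 of 12 in delta cells (0.01). None was called. In beta cells Ier3 had log2 -0.69 ± 0.205 and Ier5 -0.57 ± 0.156 (edgeR, adjusted p = 0.722 and 0.632), and in delta cells they had 0.19 ± 0.269 and 0.11 ± 0.336 (0.998 each). Of 14 heat shock genes, 8 lay below 0 in beta cells (median -0.06), 13 in alpha cells (-0.23) and 14 in delta cells (-0.15). Hspa1b and Hspa1a, which encode the inducible HSP70 chaperone, had -0.71 ± 0.134 and -0.69 ± 0.152 in beta cells (adjusted p = 0.12 and 0.417), with Hspa1b at 13.9 and 12.2 plain CPM on HC and 27.0, 16.8 and 18.3 on chow. In delta cells they had -1.0 ± 0.19 and -0.96 ± 0.175 (edgeR, adjusted p = 0.224 each), both without overlap. Their part in the Junb difference was not tested.

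Of 23 tested kinases and factors upstream of AP-1, 10 lay below 0 in beta cells (median 0.01). It was 10 of 23 in alpha (0.02), 12 of 21 in delta (-0.035) and 8 of 25 over all kept cells (0.03), where 48.8% of all genes lay below 0. Elk3, a partner of serum response factor, was at -0.39 ± 0.183 in beta cells and Rps6ka3, a kinase downstream of ERK, at 0.23 ± 0.121 (edgeR, adjusted p = 0.949 each). Of 9 other bZIP relatives, 2 lay below 0 (median 0.12). Cebpb was at -0.37 ± 0.137 and Mafk at 0.53 ± 0.193 (0.912 each).

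Of 11 tested genes often described as AP-1 targets, 7 lay below 0 in beta cells (median -0.03), 6 in alpha (-0.03) and 9 of 10 in delta cells (-0.08). The only gene of any list that was called was Cdkn1a in alpha cells. This gene encodes the cell cycle inhibitor p21 and is also a target of p53. It was 41.6 and 38.5 plain CPM on HC and 90.0, 79.2 and 69.6 on chow, without overlap, and the log2 difference was -1.09 ± 0.134 (edgeR, adjusted p = 0.00195). In beta cells its difference of -0.40 ± 0.127 did not pass (0.836).

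Over the 30 sums of a cell type and a mouse, each member was set beside 8288 genes by the Pearson correlation of log2(CPM + 1). These sums share libraries and differ in depth and hormone share, so r is a description. The closest genes named here were taken from outside the 7. Junb ran closest to Dusp1 (r = 0.94), Ostf1 (0.93) and Marcksl1 (0.92). Jun ran closest to Ier2 (0.96), itself an immediate-early gene, and then to Psma7 and Myl12b. Fos ran closest to Btg2 (0.89), Map2k1 and Ier2, and Fosb to Tra2a (0.83), Snrnp70 and Ubl3. The pattern of Jund was most like those of Tcf12 (0.94), Ddx5 and Puf60. Fosl2 was most like H2-K1 (0.95), Ttyh3 and Rcsd1, and Atf3 most like Arrb2 (0.86), Ctsz and Prkcd. Among the members, Fos and Junb had the highest r (0.88) and Fosb and Fosl2 the lowest (0.10).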

How the data were processed

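The deposited files are raw UMI counts per gene and cell barcode, 1 matrix per mouse. The authors made these counts with Cell Ranger 4.0.0 on the mm10 build, per the submitters' processing notes, and the annotation release is not given in the sources used here. Gene coordinates are from GENCODE on GRCm38, which is mm10. All 7 members matched by symbol, and 32158 of 32285 genes had one.

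Barcodes with at least 1000 UMIs, 500 genes and at most 15% mitochondrial UMIs were kept. Cells were scaled to 10000 UMIs and clustered over 2000 variable genes and 30 principal components (scanpy 1.11.5, Leiden resolution 1) into 21 clusters. The clusters took a name when at least 3 markers of a type, and at least 2 times as many as of any other type, stood among their 10 leading genes, and the cluster's mean of any other islet hormone gene stayed under 50% of that gene's maximum over clusters. No doublet caller was run, and droplets of mixed type were treated by an alternative.

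UMI counts were summed over the cells of a named type in each mouse, for types with 20 or more cells in all 5, which made the mouse the replicate. HC was tested against chow with edgeR 4.0.16 in R 4.3.3 (TMM scaling, low counts removed by filterByExpr, the robust form of the two-sided quasi-likelihood test, and a threshold of 0.05 on the p adjusted by Benjamini-Hochberg over all genes tested). Types were tested in 1 fit over all named types and interactions in a separate fit, each with the mouse as a block. Only the fit of HC against chow was checked on simulated counts, and the outcome of that check is not given here. Precision is set by 2 HC and 3 chow mice and by the UMIs summed.

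The members and lists were chosen with earlier results of these data known. Named list genes are those called, otherwise the 2 of smallest p in beta cells. Likeness used genes with a mean of at least 10 CPM. Alternatives were DESeq2 1.42.0, no filter on low counts, prefix or age as a term, grouping by title, equal cells per mouse, a stricter cell filter, other clusterings, hormone genes left out, mixed droplets left out and each mouse left out in turn.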

Additional observations from a re-analysis of the deposited data

Results flagged for a closer look

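The barcodes that the filter on cells left out, which no comparison used, carried more AP-1 RNA per UMI than the kept cells of the same mouse. Summed over the 7 genes, they held 3974 CPM against 1607 in kept cells of chow mouse 1, 3066 against 1218 in chow mouse 2 and 2937 against 1033 in chow mouse 3. In the HC mice the values were 2610 against 1382 (HC mouse 1) and 3245 against 1143 (HC mouse 2). The left-out barcodes had the higher level in all 5 libraries. These values are plain CPM, and hormone genes filled 55.5% to 63.9% of the UMIs of kept cells. The left-out barcodes were not assigned to cell types. Among kept cells the summed level was 570 to 1201 CPM in beta and 4052 to 5817 in endothelial cells. The part of cell type and hormone share in the higher level was not tested.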

How the results depend on the processing

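Across the alternatives the diet difference of Junb stayed below 0 in beta, alpha and delta cells in all that could be run. The count of AP-1 genes called in beta cells, 0, became 3 without the filter on low counts (Fos, Jun and Junb) and 1 with the prefix as a term, with age as a term or with DESeq2 (Junb each time). In delta cells it became 1 without the filter, with the prefix or with age (Junb). In alpha cells it became 1 with age (Junb) or by the title's grouping (Atf3), and between 0 and 1 with each mouse left out. Genome-wide, 1 gene was called in beta cells, and between 0 and 58 over the alternatives. The 58 came without the filter, of 18021 genes. Called higher and lower were 7 and 13 of 11852 with the prefix, 3 and 8 with age, and 6 and 6 of 18021 by DESeq2. In delta cells they were 2 and 4 of 16369 without the filter, 0 and 3 of 9493 with the prefix, and 2 and 3 with age. In alpha cells they were 2 and 7 of 10719 with age. The count called in stromal against beta cells, 5, was 3 in the chow mice alone and between 3 and 6 with each mouse left out. Of all genes, 2697 of 10775 were called higher there, and 1893 of 9726 in the chow mice alone. With each mouse left out, the interaction with diet called 0 to 1 genes in alpha and 0 to 1 in stromal cells. With the stricter cell filter, an alternative chosen for this comparison after seeing the data, in a fit of beta, alpha, delta and macrophage cells alone, it called 1 in alpha (Fosb) and 1 in macrophage cells (Jun). The count of AP-1 genes whose share of thinned beta cells lay below all chow mice in both HC mice, 1 (Atf3, from 0 or 1 cell per mouse), ranged from 1 to 5 with each mouse left out.

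Several differences changed sign, and not all of the changed values lay near 0. With the prefix as a term, Jun became -0.022 in alpha and 0.021 in stromal cells. With age, Jun was -0.16 in alpha, Jund -0.051 in macrophage and -0.013 in endothelial, Fos 0.017 in stromal and Atf3 0.31 over all kept cells. By the title's grouping, Jund was 0.11 in alpha, 0.26 in delta and 0.033 over all kept cells, Fosb 0.092 in delta, -0.93 in stromal and 0.16 over all kept cells, Fosl2 -0.64 and Jun 6.5e-05 over all kept cells. At resolution 0.5, Fosb was 0.040 in macrophage and Jund -0.076 in endothelial cells. The stricter cell filter gave Jun 0.12 in macrophage cells and Jund -0.090 in macrophage against beta cells. In stromal cells Fosb was -0.031 with DESeq2 and -0.76 with equal cells, and Jun was 0.055 without the low-count filter, 0.095 without mixed droplets and 0.021 without hormone genes. Over all kept cells Fosb was 0.0084 with equal cells and 0.0026 without mixed droplets. In the chow mice alone, Fosb was -0.027 in delta and Jund -0.14 in macrophage against beta cells. The cause was not tested.

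With each mouse left out, ranges that crossed 0 were, for Fosl2, -0.70 to 0.097 in beta and -0.49 to 0.53 over all kept cells. For Jun they were -0.11 to 0.14 in alpha, -0.19 to 0.078 in macrophage and -0.35 to 0.36 in stromal cells. For Jund they were -0.15 to 0.078 in alpha, -0.34 to 0.18 in delta, -0.078 to 0.26 in macrophage, -0.0033 to 0.14 in endothelial and -0.74 to 0.069 in stromal cells. For Fosb they were -0.32 to 0.013 in delta, -0.35 to 0.045 in macrophage, -0.55 to 0.034 in endothelial, -0.75 to 0.42 in stromal and -0.15 to 0.13 over all kept cells. Fos had -1.37 to 0.39 in stromal and Atf3 -1.63 to 0.44 over all kept cells. Against beta cells, Fosb in delta had -0.067 to 0.13 and Jund in macrophage -0.084 to 0.11.

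No paired analysis was possible because the labels give no replicate numbers that pair chow with HC mice, and the library prefix was entered as a term in its place. Leaving out 1 HC mouse, or grouping by title, leaves a lone HC sample that is assumed to vary like the chow group. The stricter cell filter left values for beta, alpha, delta, macrophage and all kept cells only, and at resolution 0.5 no alpha or delta cluster took a name. Prefix and age were entered as terms 1 at a time. Nothing in the labels says that the mice came from separate litters or cages, so p-values measure the spread between these 5 animals. Counting error limits Atf3 outside macrophages and alpha cells, and Fosl2 throughout.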

Other observations

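The clusters that received no name were not compared between diets, and 1 of them held 1902 to 3934 CPM of summed AP-1 RNA, where macrophages held 2303 to 2804 and endothelial cells 4052 to 5817. Its leading genes were Spp1, which encodes osteopontin, Apoe, an apolipoprotein, Wfdc18 and Clu, the chaperone clusterin, and it had 39 to 105 cells per mouse. There Junb was 391 and 969 plain CPM in HC mice 1 and 2, and 569, 659 and 931 in chow mice 1 to 3. Atf3 was 11.9 and 32.6 against 39.9, 6.53 and 144, from 3 to 30 UMIs per library, so the mice differed widely. The group led by Ppy and Pyy, the genes of pancreatic polypeptide and peptide YY, had Junb between 175.0 and 258 and Atf3 between 0 and 6.73.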
